A study of Mus musculus with 2 samples.

Results

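Barcodes carrying RNA of liver sinusoidal endothelial cells were selected from single-cell RNA-seq of perfused mouse hepatocytes and compared between a control and a YAP-expressing liver. A barcode was a member where unique molecular identifiers (UMIs, one per captured transcript) of 12 endothelial genes summed to at least 15 and those of 6 Kupffer cell genes to less than 15. The endothelial genes were Ptprb, Kdr, Egfl7, Cldn5, Ramp2, Clec4g, Stab2, Ehd3, Cd93, Calcrl, Dnase1l3 and Aqp1, and the Kupffer cell genes were C1qa, C1qb, C1qc, Cd5l, Vsig4 and Clec4f. The rule selected 225 of 4513 barcodes, 63 of 2989 in the control and 162 of 1524 in the tetYAP 4W liver. These are called endothelial barcodes.

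Both animals were on a C57BL/6 background and carried LaptTA, a tetracycline transactivator driven by the LAP promoter in hepatocytes. The control carried no tetYAP, and the tetYAP 4W animal carried in addition an inducible, constitutively active YAP that was switched on for 4 weeks by withdrawing doxycycline from the diet, starting in young mice. The transgene is therefore directed to hepatocytes, and the endothelial cells are those that remained in a preparation meant for hepatocytes. Each group has 1 library, so nothing was tested between groups, and all intervals below cover counting error only.

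Sinusoidal endothelial cells form the fenestrated wall of the liver capillaries. They clear waste macromolecules through scavenger receptors such as the stabilins and the mannose receptor, and they feed signals back to hepatocytes: BMP ligands that set hepcidin production and iron balance, and WNT ligands and R-spondin that maintain metabolic zonation around the central vein. In chronic liver injury this endothelium can lose its fenestrae and take on features of continuous capillaries, among them CD34 and a basement membrane.

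The share of endothelial barcodes was 2.11% of the control barcodes (exact 95% interval 1.62 to 2.69) and 10.6% of the tetYAP 4W barcodes (9.13 to 12.3). The summed UMIs of the 12 endothelial genes had a median of 39 in control barcodes (16 to 119) and of 66 in those of the tetYAP 4W liver (15 to 130). Outside the members, barcodes mostly held few of these UMIs: 71.9% of the control and 37.1% of the tetYAP 4W barcodes had 0, and 19.3% and 26.1% had 1. Just outside the threshold, at sums of 12 to 14, lay 9 control and 19 tetYAP 4W barcodes, and just inside it, at 15 to 17, lay 3 and 16. A further 11 barcodes with both sums at 15 or more, 1 of the control and 10 of the tetYAP 4W liver, were left out by the rule. The table holds fewer tetYAP 4W than control barcodes, although barcodes were down-sampled to equal numbers, and what the removal of deep barcodes took from each library, and so from these shares, was not tested. Thinning each barcode to 2000 UMIs before applying the rule gave shares of 1.48% and 7.68%.

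**Figure D1:**
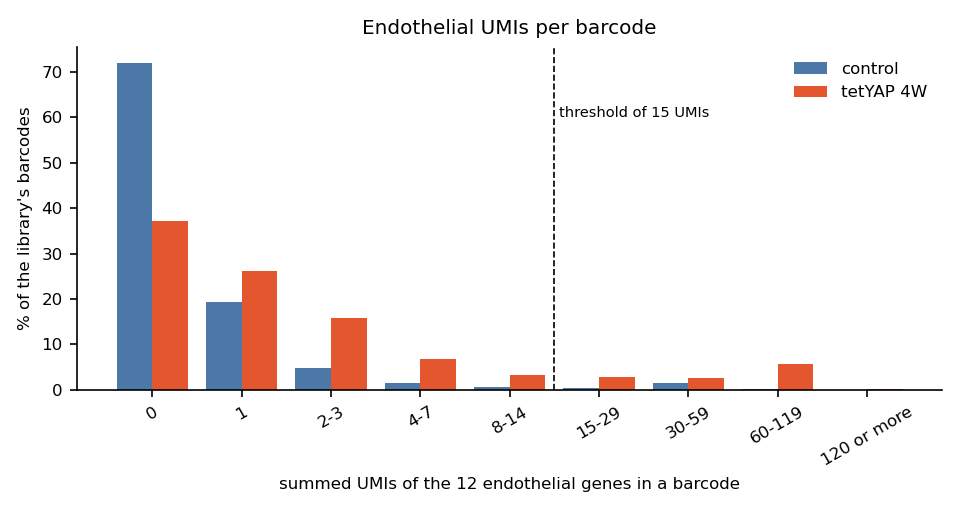
Percentage of each library's barcodes (vertical axis) by the summed UMIs of the 12 endothelial genes (horizontal axis, bins of unequal width), control in blue and tetYAP 4W in orange, with the threshold of 15 UMIs as a dashed line. In the control 71.9% of the barcodes had no endothelial UMI, against 37.1% in the tetYAP 4W liver, and those right of the line are the 63 and 162 selected ones together with the 11 left out for their Kupffer cell sum.

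Endothelial barcodes held a median of 4646 UMIs in the control (2701 to 7175) and 5767 in the tetYAP 4W liver (2632 to 7492), and 294055 and 885791 UMIs in all. Barcodes above 7500 UMIs had been removed by the authors, and 2 control against 67 tetYAP 4W endothelial barcodes lay above 6000. No barcode sequence occurred in both libraries. Xist had 0 control and 813 tetYAP 4W UMIs in endothelial barcodes and the Y-linked Ddx3y had 25 and 0, so that the sex of the animal and the genotype cannot be told apart.

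The endothelial label was checked against 20 pan-endothelial genes that the rule did not use. Of the 19 with at least 10 UMIs, 18 lay above background, defined as a CPM interval (UMIs of a gene scaled to a fixed library total) wholly above 2-fold over the background barcodes of the same library in at least 1 library. Background barcodes had at most 3 endothelial and at most 3 Kupffer cell UMIs and numbered 2830 and 663. Pecam1, the platelet endothelial adhesion molecule, was at 194 CPM in control endothelial barcodes and 2.14 in background, and at 284 against 13.7 CPM in tetYAP 4W. Cdh5, the cadherin of endothelial junctions, was at 279 against 4.97 CPM in control and at 450.4 CPM in tetYAP 4W endothelial barcodes, 32.1-fold over background. The exception was S1pr1, a sphingosine-1-phosphate receptor, at 68.0 against 33.1 CPM in control barcodes and 66.6 against 33.0 CPM in tetYAP 4W.

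The same barcodes also carried hepatocyte RNA in full measure. The 12 hepatocyte markers, led by Alb, the albumin gene, summed to 365 UMIs per endothelial barcode in the control (217 to 543 over barcodes) beside 347 in background barcodes, and to 293 (68 to 557) beside 357 in the tetYAP 4W liver. Only 1 of 63 and 7 of 162 endothelial barcodes lay below the 5th percentile of background barcodes. Subtracting background RNA scaled to the hepatocyte markers left 1379 UMIs per control barcode and 1946 per tetYAP 4W barcode, 29.5% and 35.6% of the total. Whether a droplet held an endothelial cell in free hepatocyte RNA or an endothelial cell together with a hepatocyte was not tested. The label therefore describes a component of these barcodes, and a difference between libraries was read as endothelial only for genes above background. Such a gene may still not lie above background in the other library.

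Macrophage RNA was present in many tetYAP 4W endothelial barcodes. At least 2 UMIs of the 6 Kupffer cell genes were found in 4.76% of control and 77.8% of tetYAP 4W endothelial barcodes, beside 0.353% and 61.8% of background barcodes, and at least 2 of the 12 macrophage markers in 25.4% and 72.2%, beside 2.93% and 60.5%. The 12 T or NK cell markers had 2 control and 11 tetYAP 4W UMIs in all endothelial barcodes, and the lymphatic markers Ccl21a, Mmrn1 and Pdpn had none in either library. B cell markers had 17 and 8 UMIs, of which 15 were in 1 control barcode, and erythroid markers had 248 and 488 UMIs, of which 236 and 452 were in 1 barcode of each library. Stellate cell markers had 134 and 245 UMIs, with 79 in 2 control and 72 in 3 tetYAP 4W barcodes. The 6 Kupffer cell genes of the rule averaged 0.524 UMIs per control and 3.30 per tetYAP 4W endothelial barcode, beside 0.0657 and 1.79 in background barcodes. The 12 macrophage markers averaged 1.46 and 2.82 UMIs per endothelial barcode, beside 0.259 and 4.02 in background. Mitochondrial transcripts took a median of 20.9% and 23.9% of the UMIs of endothelial barcodes, beside 28.2% and 53.1% in background. What part any of these differences had in the ratios below was not tested.

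The 12 rule genes selected the members and are given as a description. Kdr, the main VEGF receptor, had 203 control and 850 tetYAP 4W UMIs, or 690.3 and 959.6 CPM. Dnase1l3, a secreted nuclease of sinusoidal endothelium, was at 1381 and 1448 CPM, and Stab2, the hyaluronan-clearing stabilin, at 479.5 and 815 CPM. Calcrl, the receptor for adrenomedullin, was at 252 and 179.5 CPM, while its accessory protein Ramp2 was at 252 and 597 CPM.

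Genes with at least 20 UMIs over both libraries were compared with background, 6221 in all. Of these 22.7% lay above background in control and 27.3% in tetYAP 4W barcodes. The barcodes were selected on this contrast, so that these shares are a description. Between them 2065 genes were above background in at least 1 library, 1043 in both, 367 in the control alone and 655 in the tetYAP 4W liver alone. A gene that passed in 1 library alone did so partly because it was high there.

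The genes that stood furthest above background in both libraries were mostly known products of sinusoidal endothelium. They were the 12 with the largest lower bound of that ratio in the library where it was smaller. Bmp2, a BMP ligand that drives hepcidin in hepatocytes, was at 707 CPM in control endothelial barcodes against 6.32 in background, a 112-fold ratio. In tetYAP 4W barcodes it was at 571 against 7.01 CPM, an 81.4-fold ratio. Oit3, a liver-restricted secreted protein, stood 93.4- and 78.2-fold over background. Cyp26b1, which degrades retinoic acid, stood 65.3- and 77.5-fold over background. F8, the coagulation factor VIII gene, whose main source in the body is this endothelium, stood 62.5- and 86.3-fold over background.

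The remaining 8 were the phospholipid phosphatase Plpp1, the TGF-beta co-receptor Eng, the scavenger receptor Stab1, the orphan receptor Gpr182, the cytochrome Cyp4b1, the lipase anchor Gpihbp1, Fam167b and the Rap exchange factor Rapgef5. Their folds over background ran from 59.6 for Plpp1 to 126 for Rapgef5 in the control and from 47.3 for Gpihbp1 to 80.9 for Cyp4b1 in the tetYAP 4W liver.

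**Figure D2:**
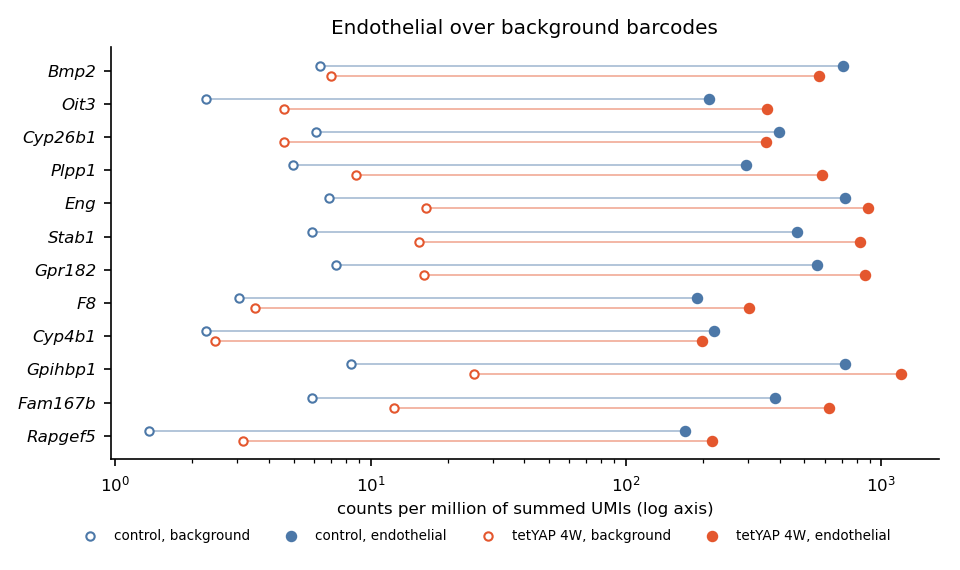
CPM of summed UMIs (log axis) of the 12 genes furthest above background, with filled points for endothelial and open points for background barcodes, control in blue and tetYAP 4W in orange. For every gene both filled points lie far right of both open points, as for Bmp2 at 707 and 571 against 6.32 and 7.01, and the filled points of the 2 libraries differ far less, at most 1.98-fold (Plpp1).

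The comparison between libraries asked how this endothelium differed next to hepatocytes that expressed active YAP. Endothelial barcodes of the tetYAP 4W liver carried more RNA for the lipid chaperone Fabp4, for Cd34, Icam2, Vim and Pcdh17, for the collagen chaperone Serpinh1 and for the chemokine Cxcl10. All were past 2-fold when summed over all endothelial barcodes, though not all were within the bands given below. The BMP ligands Bmp2 and Bmp6 lay below no change, and neither they nor any other gene above background passed 2-fold lower. Each ratio is the log2 of the tetYAP 4W CPM divided by the control CPM, and a sum below 3 UMIs in a library was raised to that floor. A gene was called where its whole exact interval lay beyond 2-fold, and is said to lie above or below no change where its interval excluded a ratio of 0.

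Over all 6221 genes compared, 49 were called higher (0.788%) and 120 lower (1.93%), and among the 2065 genes above background 22 were higher (1.07%) and 0 lower (0%). Intervals that excluded no change were above it for 15% and below it for 9.97% of all genes compared, and for 26.6% and 1.07% of genes above background. The median log2 ratio was 0.22 over all genes compared and 0.53 over those above background, so that single genes are to be read against 0.53. The split depended on the scale: of the genes called, 29% were higher by total UMIs, 66.7% (18 higher and 9 lower) after background subtraction, and 12.1% (30 and 217) with the 12 rule genes as the total. On that last scale the median of genes above background was 0.17, 11 of them were called higher and 2 lower. After background subtraction 12 of the genes above background were called higher and 4 lower. Genes could enter this set through the library where they were high, 655 through tetYAP 4W alone and 367 through the control alone. The split within the set is therefore a description.

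Fabp4 (chromosome 3, 10204342 to 10208616, RefSeq on GRCm38.p6), a fatty acid chaperone of adipocytes and of capillary endothelium, had the highest lower bound of all genes above background. It had 44 UMIs in control and 1080 in tetYAP 4W endothelial barcodes, or 149.6 and 1219 CPM, a log2 ratio of 3.03 (2.59 to 3.50) and an 8.15-fold higher level. Fabp4 was at 3.39 and 41.0 CPM in background. At the level of barcodes, 41 of 63 control barcodes had no Fabp4 UMI and the highest had 6, whereas 26 of 162 tetYAP 4W barcodes had none, the median was 5, 41 held 10 or more and the highest held 36. The ranges overlapped, since control barcodes fell within the lower part of the tetYAP 4W range. After thinning to 2000 UMIs, 15.9% (7.88 to 27.3) and 71.6% (64.0 to 78.4) of barcodes had a Fabp4 UMI, beside 0.511% and 5.88% of background barcodes, whose median depths were 3099 and 4054 UMIs before thinning.

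Cd34 had the next highest lower bound among the genes named between libraries, and Icam2 is given beside it. Cd34 (chromosome 1, 194938821 to 194961292), a sialomucin of continuous capillaries, was found in 0 of 63 control barcodes, which allows up to 5.69% of such barcodes to hold a UMI and says nothing of cells that express it below detection. It was found in 40 of 162 tetYAP 4W barcodes (24.7%, 18.3 to 32.1), and in 13.6% (8.71 to 19.8) after thinning. With 0 and 64 UMIs the Cd34 level was 7.08-fold higher against the floor of 3 UMIs, and the exact interval put it at least 5.60-fold higher. Background barcodes showed Cd34 in 0 of 2830 and in 0.905% of 663. Icam2, an adhesion molecule of endothelial junctions, had 15 and 253 UMIs, a log2 ratio of 2.49 (1.74 to 3.34). Icam2 was found in 13 of 63 and in 117 of 162 barcodes, and after thinning in 11.1% (4.59 to 21.6) and 43.2% (35.5 to 51.2).

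Pcdh17, a protocadherin, had 12 and 204 UMIs (2.50, 1.66 to 3.47). Vim, the intermediate filament vimentin, had 9 and 240 UMIs (3.15, 2.20 to 4.29), with background at 1.24 and 73.3 CPM. Mest, an imprinted hydrolase, had 3 and 81 UMIs (3.16, 1.57 to 5.47), and Slc26a10, a gene of the anion exchanger family, had 8 and 138 (2.52, 1.5 to 3.76). Serpinh1, the collagen chaperone, had 5 and 101 UMIs (2.75, 1.48 to 4.40).

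Others of the 12 genes highest between libraries were less specific to endothelial barcodes. Tagln2, an actin-binding protein, had 31 and 403 UMIs (2.11, 1.58 to 2.69), Adgre5, a leukocyte adhesion receptor, 5 and 92 (2.61, 1.34 to 4.27), and Fxyd5, a regulator of the sodium pump, 14 and 179 (2.09, 1.30 to 2.99). Background of Tagln2, Adgre5 and Fxyd5, at 74.0, 65.6 and 96.8 CPM in tetYAP 4W, was 35.9-, 13.7- and 18.3-fold below the endothelial level in control barcodes but 6.15-, 1.58- and 2.09-fold below it in tetYAP 4W barcodes. T or NK cell markers averaged 4.37 UMIs per background barcode in the tetYAP 4W liver and 0.0636 in the control, and the part of such cells in these background levels was not tested.

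Of the 22 genes called higher above background, 10 more lay outside these 12. They were Sparc, a matricellular protein, with 172 and 1456 UMIs (1.49), Gng11, a G protein subunit, with 75 and 603 (1.42), Ccnd1, cyclin D1, with 26 and 253 (1.69), Cotl1, an actin-bundling protein, with 19 and 208 (1.86), and Wfdc17, with 13 and 166 (2.08) and a tetYAP 4W background of 218 CPM above its 187 CPM, together with Ccdc32, Anxa1, Ifi44, Nes and Ccdc85b.

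**Figure D3:**
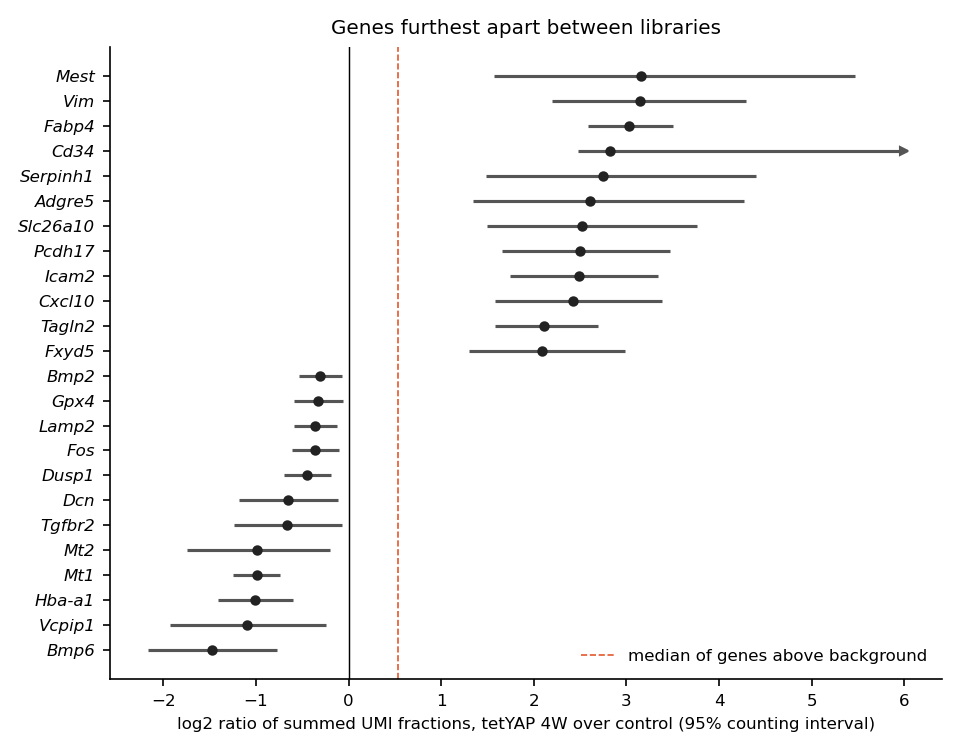
Log2 ratio of tetYAP 4W over control in endothelial barcodes (points) with 95% counting intervals (lines) for the 12 highest and 12 lowest genes above background, an arrow marking the open upper interval of Cd34, which had no control UMI. Fabp4 at 3.03 (2.59 to 3.50) has a narrow interval far right of the dashed line at 0.53, the median of genes above background, while Bmp6 at -1.47 (-2.17 to -0.77) lies furthest left.

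The share of hepatocyte RNA and the number of endothelial UMIs per barcode differed between libraries, so the values are also given within bands of the endothelial sum. The rule used this sum, and hepatocyte markers still differed within bands, with 376 and 277 UMIs per barcode at 30 to 59, so that the bands are a description. At sums of 30 to 59, with 43 control and 33 tetYAP 4W barcodes, Fabp4 was at 188 and 1397 CPM (log2 ratio 2.90, 2.40 to 3.43), Icam2 at 64.2 and 319 CPM (2.31, 1.43 to 3.31), Pcdh17 at 59.3 and 234 CPM (1.98, 1.02 to 3.04) and Sparc at 524 and 1734 CPM (1.73, 1.40 to 2.06). Within this band Cd34 had 0 and 20 UMIs (lower bound 2.51). Cd34 had 0 and 5 UMIs at 15 to 29 and 0 and 39 at 60 or more. Its lower bounds there were -1.62 and -0.62, which include no change. At sums of 60 or more, with 6 and 89 barcodes, Fabp4 was at 169 and 1338 CPM (2.99, 1.86 to 4.44). At sums of 15 to 29, with 14 and 40 barcodes, Fabp4 had 0 and 96 UMIs, Icam2 2 and 17 (1.01, -0.48 to 4.75), Pcdh17 0 and 17 and Sparc 29 and 147 (0.85, 0.26 to 1.47). In the band of 60 or more, Icam2 had 0 and 180 UMIs, Pcdh17 0 and 146 and Sparc 37 and 1005 (0.81, 0.33 to 1.32). Neither Cxcl10 nor Ccnd1 was past 2-fold within any band. Cxcl10 had 0 and 6 UMIs at 15 to 29 (lower bound -1.26). It was at 1.79 (0.72 to 2.99) at 30 to 59 and 1.75 (0.46 to 5.40) at 60 or more. From the lowest band to the highest, Ccnd1 was at 1.67 (0.27 to 5.38), 1.62 (0.81 to 2.49) and 0.93 (-0.22 to 2.40).

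Both BMP ligands of this endothelium lay below no change. Bmp6 (chromosome 13, 38345716 to 38500314), the other endothelial ligand that drives hepcidin, had 35 UMIs in control and 38 in tetYAP 4W endothelial barcodes, or 119 and 42.9 CPM, beside 0.790 and 1.40 CPM in background. Its log2 ratio was -1.47 (-2.17 to -0.77), and over all alternatives it ran from -2.19 to -1.19. A Bmp6 UMI was found in 36.5% of control and 20.4% of tetYAP 4W barcodes, and in 20.6% (11.5 to 32.7) and 5.56% (2.57 to 10.3) after thinning, beside 0.219% and 0.452% of background barcodes. The difference thus had the same direction where depth was equal.

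Bmp2 (chromosome 2, 133552159 to 133562896) had 208 and 506 UMIs, a log2 ratio of -0.31 (-0.54 to -0.07), and -0.67 with the 12 rule genes as the total. Per barcode, 5 of 63 control and 32 of 162 tetYAP 4W barcodes had no Bmp2 UMI, with medians of 3 and 2 and a highest count of 11 in both. After thinning, 73.0% (60.3 to 83.4) and 61.1% (53.1 to 68.7) of barcodes had a Bmp2 UMI, intervals that overlap. Within bands of the endothelial sum Bmp2 was at 606 and 228 CPM at 15 to 29 (-1.41, -2.13 to -0.69), at 647 and 405 CPM at 30 to 59 (-0.68, -1.11 to -0.25), and at 1209 and 722 CPM at 60 or more (-0.74, -1.20 to -0.25). Bmp6 was lower in the same 3 bands, at -2.49 (-6.42 to -0.60), -1.38 (-2.86 to -0.09) and -2.10 (-3.26 to -0.76). The bands share the limits given for them above.

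Receptors and mediators of the pathway varied. Tgfbr2, the type II TGF-beta receptor, had 40 and 76 UMIs (-0.66, -1.24 to -0.07), while Tgfb1, the ligand, had 31 and 183 (0.97, 0.42 to 1.57) and Eng had 213 and 784 (0.29, 0.07 to 0.51; -0.07 with the 12 rule genes as the total). Id2, an inhibitor of differentiation that BMP signals induce, was at 245 and 121 CPM, close to the 209 and 153 CPM of background, and Id3, at 476 and 629 CPM, was above its background of 163 and 84.2 CPM. Of the 16 members of the BMP and TGF-beta list with at least 10 UMIs, 3 were above no change, 5 below it and 8 included it. Over all genes compared, 15% were above and 9.97% below no change, and over genes above background 26.6% and 1.07%. The list median was -0.09, which includes the hepatocyte gene Hamp, beside 0.15 over all 8448 genes with at least 10 UMIs.

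Hamp, the hepatocyte gene for hepcidin, is the target of both ligands and reached these barcodes with hepatocyte RNA. It was at 4248 CPM in control and 851 CPM in tetYAP 4W endothelial barcodes and, in background barcodes, at 6984 and 1358 CPM. Hepatocyte RNA of the tetYAP 4W liver thus held less Hamp, in endothelial and background barcodes alike, and any relation to the ligands was not tested.

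The other genes lowest between libraries included metal and stress response transcripts. Mt1 and Mt2, the metallothioneins, were at 718 and 360.1 CPM (-0.99, -1.25 to -0.74) and at 85.0 and 42.9 CPM (-0.99, -1.75 to -0.20). Dusp1, a phosphatase of the early stress response, and Fos, an immediate early gene, were at 619 and 454 CPM (-0.45, -0.70 to -0.19) and at 629 and 490 CPM (-0.36, -0.61 to -0.10). Without barcodes above 30% mitochondrial UMIs these became -0.14 for Dusp1 and -0.04 for Fos. Lamp2, a lysosomal membrane protein, the peroxidase Gpx4 and the deubiquitinase Vcpip1 were at -0.36, -0.33 and -1.10. Hba-a1, a globin gene at -1.01, and Dcn, decorin of stellate cells, at -0.65, had 86 of 87 and 119 of 130 UMIs, and up to 36 of 47 and 19 of 90, in 1 barcode. Without barcodes holding over 10 stellate, B cell or erythroid UMIs their ratios were 0.25 for Hba-a1 and 0.75 for Dcn.

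Signals that endothelium sends to hepatocytes also included WNT ligands. Wnt2, a ligand of the pericentral endothelium, had 18 control and 140 tetYAP 4W UMIs, or 61.2 and 158 CPM, beside 0.677 and 0.701 CPM in background, with a log2 ratio of 1.37 (0.66 to 2.16). A Wnt2 UMI was found in 14 of 63 and 60 of 162 barcodes, and after thinning in 11.1% (4.59 to 21.6) and 22.2% (16.1 to 29.4), intervals that overlap. Within bands the Wnt2 intervals included no change, at 0.21 (-1.49 to 2.28) for sums of 15 to 29, 0.32 (-0.93 to 1.58) for 30 to 59 and 1.29 (-0.01 to 4.94) for 60 or more. The last band sets 2 UMIs in 6 control barcodes beside 114 in 89 of tetYAP 4W.

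Other angiocrine genes varied in count. Wnt9b had 0 and 11 UMIs, and Rspo3, the R-spondin of the central vein, had 3 and 25, of which 24 lay in 3 barcodes. Hgf, the hepatocyte growth factor, had 12 and 50 UMIs (0.47, -0.46 to 1.51). Of the 13 members of the angiocrine list with at least 10 UMIs, 10 reached 20, of which 2 were above no change and 4 below it. Shares over all genes compared were 15% above and 9.97% below, and over genes above background 26.6% and 1.07%. The 4 below were Bmp2, Bmp6, Cxcl12 and Igf1, the last 2 no higher in endothelial than in background barcodes of the tetYAP 4W liver, at 50.8 against 75.8 and 259.7 against 448 CPM.

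Genes of the pericentral endothelium had a median log2 ratio of 1.04 and those of the periportal endothelium 0.61, beside 0.53 for genes above background. In the pericentral list, Ptgs1, a cyclooxygenase, had 20 and 136 UMIs (1.17, 0.49 to 1.93), Thbd, thrombomodulin, 10 and 69 (1.20, 0.23 to 2.32) and Kit, the stem cell factor receptor, 19 and 88 (0.62, -0.11 to 1.42). In the periportal list, Cd36, its most counted member, had 63 and 442 UMIs (1.22, 0.84 to 1.62), as high a ratio as those of Ptgs1 and Thbd. Dll4, a Notch ligand, had 6 and 47 UMIs (1.38, 0.15 to 2.90) and Ltbp4, a TGF-beta binding protein, 48 and 209 (0.53, 0.07 to 1.02). Msr1, a macrophage scavenger receptor, had 44 and 119 UMIs (-0.16, -0.67 to 0.38).

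The 2 lists overlapped in many barcodes. With at least 2 UMIs of a list as the criterion, 20 of 63 control barcodes held both lists, 9 the pericentral alone, 24 the periportal alone and 10 neither, and 82, 23, 42 and 15 of 162 did so in the tetYAP 4W liver. After thinning, 17.5% and 64.2% of barcodes held the pericentral list and 42.9% and 59.9% the periportal one. Fabp4 is a member of the pericentral list and supplied most of its UMIs in the tetYAP 4W liver.

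Fabp4-rich barcodes were deeper and carried more of several other genes. In the tetYAP 4W liver, the 26 barcodes without Fabp4, the 95 with 1 to 9 and the 41 with 10 or more had median depths of 5183, 5408 and 6322 UMIs and median endothelial sums of 53, 57 and 79. Across these, Wnt2 was at 46.1, 133 and 263 CPM, Icam2 at 192, 275 and 352 CPM and Vim at 177, 219 and 418 CPM. Mrc1, at 654, 549 and 631 CPM, and Bmp2, at 538, 593 and 546 CPM, showed no such order. These are sums within 1 library whose depth and endothelial content rose with the band.

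**Figure D4:**
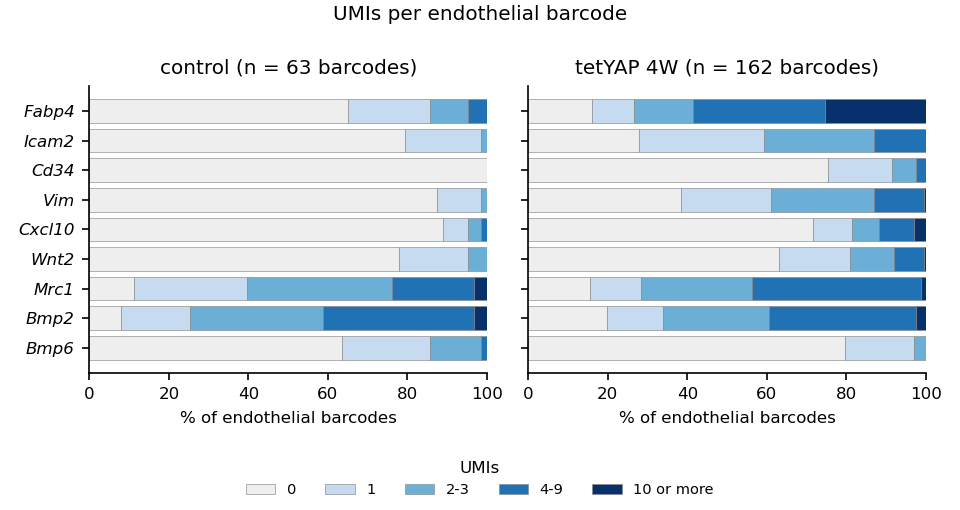
Percentage of endothelial barcodes (horizontal axis) with 0, 1, 2 to 3, 4 to 9 and 10 or more UMIs (light to dark) of 9 genes, with the control on the left (63 barcodes) and the tetYAP 4W liver on the right (162 barcodes). For Fabp4 the bars pass from 41 of 63 barcodes without a UMI to 41 of 162 with 10 or more, Cd34 is absent on the left, and Bmp6 shows more barcodes without a UMI on the right.

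Receptors of the scavenging endothelium went different ways. Mrc1, the mannose receptor, had 164 and 521 UMIs (0.08, -0.18 to 0.34), and Fcgr2b, the Fc receptor for immune complexes, had 316 and 937 (-0.02, -0.21 to 0.17). Both ratios lay below 0.53, the median of genes above background. Stab1 had 137 and 734 UMIs (0.83, 0.57 to 1.10), and Lyve1, a hyaluronan receptor, 35 and 198 (0.91, 0.39 to 1.47). Clec1b, a podoplanin receptor, had 45 and 132 UMIs (-0.04, -0.54 to 0.48). Of the 17 members of this list with at least 20 UMIs, 10 were above no change, beside 26.6% of genes above background, and 1, Plpp3, below it at -0.26 (-0.46 to -0.06), and the list median was 0.58. With the 12 rule genes as the total the median was 0.22. Cd209b, a C-type lectin with too few UMIs for that count, had 10 UMIs in 5 control and 5 UMIs in 5 tetYAP 4W barcodes (-2.59, -4.49 to -0.91) and none in background.

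Within bands, Fcgr2b was lower in 2 of 3, at 998 and 360.3 CPM for sums of 15 to 29 (-1.47, -2.03 to -0.91) and at 1884 and 1331 CPM for 60 or more (-0.50, -0.86 to -0.12), and at 954 and 827 CPM in between (-0.21, -0.53 to 0.11). For Mrc1 all 3 intervals included no change, at -0.39, -0.12 and -0.51.

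Transcription factors of the endothelium had a median log2 ratio of 0.86 over 18 members, all above background, of which 10 were above no change, beside 26.6% of genes above background, and none below it. Gata4, which specifies sinusoidal against continuous endothelium, had 15 and 89 UMIs (0.98, 0.18 to 1.87), and Maf, a second such factor, had 284 and 990 (0.21, 0.02 to 0.41; -0.09 after background subtraction). The interval of Gata4 included 0.53. Meis2, a homeobox factor, had 50 and 288 UMIs (0.94, 0.50 to 1.40), and Nr2f2, the venous factor COUP-TFII, 59 and 353 (0.99, 0.59 to 1.41). The 3 SoxF factors Sox7, Sox17 and Sox18 had intervals that included no change, with 12 and 60, 8 and 32 and 14 and 55 UMIs.

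Not all markers of continuous endothelium behaved as Cd34 did. Plvap, a diaphragm protein of fenestrae, had 17 and 111 UMIs (1.12, 0.37 to 1.95), Ly6a 73 and 404 (0.88, 0.51 to 1.26), and Cav2, a caveolin, 7 and 61 (1.53, 0.40 to 2.91). Vwf, the von Willebrand factor of large vessels, had 0 and 2 UMIs, and Aplnr, Sele and Rbp7 had none in either library. Of 18 list members 10 had at least 10 UMIs and 8 reached 20, and the list median was 0.89. Of these 8, 5 were above no change, beside 15% of all genes compared and 26.6% of genes above background. Past 2-fold higher was 1, beside 0.788% and 1.07%.

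Genes of the basement membrane and its assembly had a median of 1.24 over the 13 members with at least 10 UMIs. Sparc is given above. Col4a1 and Col4a2, the chains of the main type IV collagen, had 60 and 362 UMIs (1.0, 0.60 to 1.42) and 25 and 179 (1.25, 0.64 to 1.92). Hspg2, perlecan, had 43 and 307 UMIs (1.24, 0.78 to 1.74), and Nid1, nidogen, 18 and 163 (1.59, 0.88 to 2.38), the last with a background of 2.37 and 73.0 CPM. The laminin chain Lama4, at 22 and 59 UMIs (-0.17, -0.90 to 0.61), and Fn1, fibronectin, at 265 and 264 CPM below a background of 332 and 551 CPM, were exceptions. Of the 11 members with at least 20 UMIs, 6 were above no change and none below it, and 5 included it. Over all genes compared, 15% were above and 9.97% below it, and over genes above background 26.6% and 1.07%.

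The cytoskeleton list was higher in nearly all members, with a median of 0.90. Of 18 members with at least 20 UMIs, 17 were above no change, beside 15% of all genes compared and 26.6% of genes above background. Of 19 with at least 10 UMIs, 12 lay above background. The list held 28.9 and 64.6 UMIs per endothelial barcode, and 6.17 and 34.0 per background barcode. Actb, beta-actin, was at 1979 and 3317 CPM (0.74, 0.62 to 0.88), Tmsb4x, thymosin beta-4, at 1547 and 3017 CPM (0.96, 0.82 to 1.11), Actg1 at 350.3 and 779 CPM (1.15, 0.85 to 1.47) and Tpm4, a tropomyosin, at 78.2 and 234 CPM (1.58, 0.95 to 2.27). Background of Tmsb4x was at 123 and 3111 CPM, so that for this gene endothelial and background barcodes of the tetYAP 4W liver were at like levels. After background subtraction the list median was 0.53.

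The VEGF and Notch lists had medians of 0.56 and 0.63, near the median of genes above background. Above no change were 5 of 7 VEGF and 2 of 6 Notch members with at least 20 UMIs, beside 26.6% of genes above background. None lay below it. In the VEGF and tip cell list, Nrp1, a VEGF co-receptor, was at 124 and 492 UMIs (0.40, 0.11 to 0.69) and Flt1, the decoy VEGF receptor, at 42 and 197 (0.64, 0.15 to 1.16). Mcam, an adhesion molecule, had 4 and 51 UMIs (2.08, 0.64 to 4.01), and Esm1, a tip cell gene, 0 and 14. Notch1 had 32 and 127 UMIs (0.40, -0.17 to 1.01), and the Notch targets Hey1, Hey2 and Heyl had 1 UMI together, in the control.

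Responses to blood flow and to inflammation were mixed. Klf2, the transcription factor induced by shear stress, had 167 and 490 UMIs (-0.04, -0.29 to 0.22) and Klf4 had 43 and 166 (0.36, -0.13 to 0.88), whereas Nos3, the endothelial nitric oxide synthase, had 7 and 59 (1.48, 0.35 to 2.86). Among adhesion molecules, Icam1 had 18 and 51 UMIs (-0.09, -0.89 to 0.77) and Vcam1 9 and 66 (1.28, 0.27 to 2.47). Chemokines went both ways. Cxcl10, which draws T cells, had 12 and 193 UMIs (2.42, 1.58 to 3.39), Cxcl9 18 and 106 (0.97, 0.24 to 1.78) and Cxcl16 22 and 142 (1.10, 0.45 to 1.82). Cxcl1 had 6 and 4 UMIs (-2.18, -4.44 to -0.10), and Cxcl12, of the angiocrine list, 30 and 45 (-1.01, -1.70 to -0.29), neither above background. Cxcl10 came from few barcodes, 7 of 63 and 46 of 162, and 44 of the 193 tetYAP 4W UMIs lay in 3 barcodes. After thinning its ratio was 1.54 (0.47 to 2.82).

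Interferon-response genes were higher in part. Of 23 members with at least 20 UMIs, 13 were above no change and none below it. The share above was 15% of all genes compared and 26.6% of genes above background. The list median was 1.09. Of 24 with at least 10 UMIs, 15 lay above background. After thinning, the list held 4.54 and 7.72 UMIs per endothelial barcode, beside 2.66 and 3.33 per background barcode. Barcodes with a Kupffer cell sum of at least 15 and an endothelial sum under 15 numbered 24 and 244. They held 5.42 and 9.02 UMIs of the list, so the higher level was not particular to endothelial barcodes. Rsad2, the antiviral enzyme viperin, had 10 and 101 UMIs (1.75, 0.81 to 2.85), Oasl2 8 and 77 (1.68, 0.63 to 2.94), Gbp7, a guanylate-binding protein, 8 and 67 (1.48, 0.41 to 2.74) and Ifit2 4 and 56 (2.22, 0.78 to 4.14). Ifitm3, the most counted member, was at 1211 and 1853 CPM (0.61, 0.45 to 0.78). Ifi27l2a, with 5 and 121 UMIs (3.01), was higher in background barcodes of the tetYAP 4W liver, at 319 CPM, than in endothelial ones, at 137 CPM. The interval of Irf1, an interferon regulatory factor with 24 and 72 UMIs, included no change (-0.01, -0.69 to 0.73).

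The interferon-response element GAAANNGAAA, searched on both strands in the 250 bases before and 50 bases after each RefSeq transcription start on GRCm38.p6, was found for 13 of the 21 interferon-list genes with a promoter entry (61.9%), beside 3.99% of 27025 genes. It was found for 8 of the 12 members whose interval lay above no change and for 5 of the other 9. Among the 12 genes highest between libraries, 9 had an entry and Cxcl10 alone held the element. A match is a description of these letters. The 250 bases upstream of the start are shown for Cxcl10, the chemokine among the genes furthest apart, and for Rsad2 and Gbp7, 2 interferon-list members above no change that hold the element, picked after their values were seen. Each runs 5′ to 3′ on the strand of the gene, with the element in capitals, which is read in reverse complement in Rsad2 and Gbp7.
Cxcl10, chr5:92348890-92349139, minus strand: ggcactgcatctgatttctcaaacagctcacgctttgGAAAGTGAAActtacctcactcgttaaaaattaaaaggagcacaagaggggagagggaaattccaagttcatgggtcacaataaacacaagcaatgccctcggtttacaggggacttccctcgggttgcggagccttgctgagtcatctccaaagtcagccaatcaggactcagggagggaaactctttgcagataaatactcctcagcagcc
Rsad2, chr12:26456453-26456702, minus strand: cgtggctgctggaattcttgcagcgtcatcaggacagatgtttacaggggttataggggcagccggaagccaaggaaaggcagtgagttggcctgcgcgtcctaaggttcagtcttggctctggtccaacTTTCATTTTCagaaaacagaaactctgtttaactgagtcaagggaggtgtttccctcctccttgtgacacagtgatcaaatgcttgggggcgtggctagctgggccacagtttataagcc
Gbp7, chr3:142530086-142530335, plus strand: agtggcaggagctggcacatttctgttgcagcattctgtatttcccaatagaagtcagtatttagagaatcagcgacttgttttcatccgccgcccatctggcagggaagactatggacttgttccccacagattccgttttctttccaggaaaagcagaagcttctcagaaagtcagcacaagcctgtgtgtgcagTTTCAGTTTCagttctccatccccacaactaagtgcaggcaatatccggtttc
The element lay 213 to 204 bases before the start in Cxcl10, 120 to 111 in Rsad2 and 53 to 44 in Gbp7.

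Antigen presentation genes of class I had a median of 0.69, with 11 of 16 members above no change and none below it. For all genes compared these shares were 15% and 9.97%. H2-K1 was at 966 and 1566 CPM (0.70, 0.51 to 0.89) and H2-D1 at 973 and 1392 CPM (0.52, 0.33 to 0.71), while B2m, their light chain, had an interval that included no change (0.08, -0.06 to 0.23). Of these 16, 5 lay above background and H2-K1 did not. None of the class II genes lay above background: H2-Ab1 had 2 and 19 UMIs, and Cd74, the invariant chain, 20 and 92 UMIs (0.61, -0.10 to 1.39), at 104 CPM in tetYAP 4W endothelial barcodes against 619 CPM in background.

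The 15 genes of the Hippo list had 97 and 413 UMIs in all in these barcodes. Of the 9 with at least 20 UMIs, 3 were above no change and none below it, beside 26.6% of genes above background. The list median was 0.32. Yap1, the targeted gene, had 6 and 21 UMIs (0.22, -1.14 to 1.81) and did not stand above background, at 20.4 and 23.7 CPM beside 16.4 and 20.7. Whether transgene RNA is counted as Yap1 was not tested. Wwtr1, the paralog TAZ, had 9 and 66 UMIs (1.28, 0.27 to 2.47), and Stk3, the kinase MST2, 5 and 44 (1.55, 0.22 to 3.24). Canonical YAP targets were scarce: Ctgf had 0 and 5 UMIs, Cyr61 2 and 19, the latter at the 21.4 CPM of background, and Amotl2 20 and 69 (0.20, -0.54 to 0.99). Of the 8 YAP target genes with at least 20 UMIs, 2 (Amotl1 and Lats2) were above no change and none below it. That share was near the 26.6% of genes above background and stands beside 15% of all genes compared. The list median was 0.58.

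Proliferation genes were rare. Mki67 had 0 and 12 UMIs and Top2a 1 and 11, in 9 and 7 of 162 tetYAP 4W barcodes, at 13.5 and 12.4 CPM beside 6.66 and 10.5 in background. Setting Ccnd1 aside, 9.52% of control and 40.1% of tetYAP 4W endothelial barcodes held at least 2 UMIs of the list, beside 0.636% and 17.9% of background barcodes. After thinning these were 0% (up to 5.69%) and 9.88% (5.75 to 15.5), beside 0.328% and 7.09% (5.25 to 9.32) of background. In the tetYAP 4W liver the thinned shares of endothelial and background barcodes overlapped within their intervals. Of the 7 members with at least 20 UMIs, Birc5, Ube2c, Stmn1, Mcm3 and Ccnd1 were above no change, beside 15% of all genes compared. Ccnd1 alone was past 2-fold, at 88.4 and 286 CPM (1.69, 1.11 to 2.33). Of the 17 with at least 10 UMIs, 2 lay above background.

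Immediate early and heat shock genes, which respond to tissue dissociation, had a median of 0.48, with 8 of 19 members above no change and 3, Fos, Dusp1 and Zfp36, below it. Of all genes compared, 15% were above and 9.97% below no change, and of genes above background 26.6% and 1.07%. Jun was at 442 and 710.1 CPM (0.68, 0.41 to 0.97) and Fosb at 224 and 361 CPM (0.69, 0.30 to 1.09). Hspa1a and Hspa1b, the inducible heat shock proteins, were at 133 and 126 and at 122 and 100.5 CPM. Among genes of lipid handling, Cd36, a fatty acid translocase, was at 214 and 499 CPM (1.22, 0.84 to 1.62), Fabp5, a second fatty acid chaperone, at 343 and 726 CPM (1.08, 0.77 to 1.40) and Gpihbp1, which carries lipoprotein lipase, at 724 and 1194 CPM (0.72, 0.51 to 0.94).

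**Figure D5:**
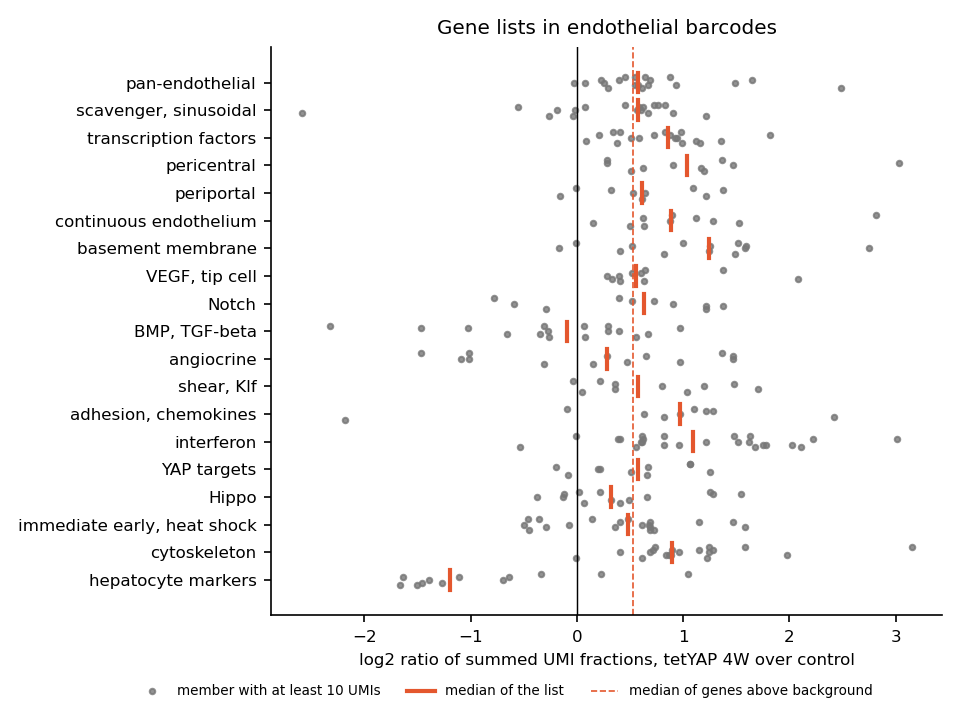
Log2 ratio of tetYAP 4W over control (horizontal axis) for the members with at least 10 UMIs of 19 gene lists (grey points, spread vertically for legibility), with list medians as orange bars and the median of genes above background, 0.53, as a dashed line. Basement membrane at 1.24, interferon at 1.09 and pericentral genes at 1.04 have the medians furthest right, the BMP and TGF-beta list at -0.09 lies left of the line, and hepatocyte markers, which these barcodes hold as carried-over RNA, lie at -1.19.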

How the data were processed

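Per the study's methods, hepatocytes were isolated by collagenase perfusion and 3' libraries were prepared on the Chromium platform. The deposited table holds UMI counts that the authors made with Cell Ranger on mm10 and handled in Seurat 3, with down-sampling to an equal number of barcodes per condition and exclusion of barcodes above 7500 UMIs. The table holds 2989 control and 1524 tetYAP 4W barcodes. It holds 31053 genes and 4513 barcodes, assigned to the 2 libraries by the labels in their barcode names. No doublet caller was run, and the rule left out 11 barcodes high for both endothelial and Kupffer cell genes.

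UMIs were summed over endothelial barcodes per library and divided by the summed total (CPM). With 1 library a group no test across samples was possible, and log2 ratios carry exact conditional binomial 95% intervals. Shares carry exact Clopper-Pearson intervals. UMIs per library in endothelial barcodes were 294055 and 885791. Genes needed 20 UMIs over both libraries, list medians used members with 10 or more, and a sum below 3 UMIs was set to 3. Rule genes were left out of the comparison.

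Genes were named as the rule genes, the 12 furthest above background in both libraries by the smaller lower bound (at least 50 UMIs in each), the 12 highest by lower bound and the 12 lowest by upper bound between libraries (at least 50 UMIs over both, mitochondrial and ribosomal protein genes left out), and members of the gene lists. The members and lists were chosen with earlier results of these data known. Python 3.11.15, numpy 2.4.6, scipy 1.17.1 and pandas 2.3.3 were used, with edgeR 4.0.16 in R 4.3.3 for normalization factors (TMM) only. The interval code was tested on simulated data. Alternatives changed the rule's thresholds, the total, the depth, the background, the floor and the barcodes included. The value of 1 list member is not reported here.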

Additional observations from a re-analysis of the deposited data

How the results depend on the processing

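Over the alternatives, 371 values of comparisons stayed within the set limits and 29 moved. Of the values of single genes or marker lists 760 stayed, 66 moved and 8 changed sign. Not all of these values could move: an offset of 0.5 in place of the floor changes ratios but not intervals, and so not the counts called. The counts of genes called all moved after background subtraction and by the rule gene total. Dcn was at 0.57 and 1.19 with endothelial sums of at least 10 and 30, and at 0.75 without barcodes over 10 stellate, B cell or erythroid UMIs, and Hba-a1 was at 0.93 with sums of at least 10 and 0.25 without those barcodes. Maf was at -0.09 after background subtraction and, with the 12 rule genes as the total, at -0.15, where Eng was at -0.07. Genes called higher and lower were 29 and 74 after thinning to 2000 UMIs, 18 and 9 after background subtraction and 30 and 217 by the rule gene total. Above background, 36 were higher and 2 lower without barcodes above 30% mitochondrial UMIs, 14 higher after thinning, 12 and 4 after subtraction, 11 and 2 by the rule gene total, and 2 lower with genes of at least 1 UMI or without barcodes above 6000 UMIs. Background subtraction gave list medians of -2.55 for class II genes and 0.53 for the cytoskeleton, and the rule gene total gave 0.22 for scavenger receptors and 0.54 for the cytoskeleton. Genes above background in tetYAP 4W numbered 2551 by UMIs per barcode and 2658 against background without immune and erythroid UMIs. The share of endothelial barcodes in tetYAP 4W was 12.8% and 8.01% with sums of at least 10 and 30, 8.20% with Kupffer sums under 5, 20.4% without barcodes above 30% mitochondrial UMIs (control 3.12%), 7.68% with the rule on thinned barcodes (control 1.48%) and 7.34% without barcodes above 6000 UMIs. The alternatives on deep barcodes, the rule gene total, the immune and erythroid background and the stellate, B cell or erythroid barcodes were chosen after seeing the data, and the cause of these shifts was not tested. No paired analysis was possible because each group has 1 library, and no library could be left out for the same reason. The control sum of 294055 UMIs limits genes with few UMIs, and genotype, animal, sex and preparation cannot be told apart.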
